A study of Homo sapiens with 13 samples.

Results

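Artificial enhancers made of the same transcription factor motifs were measured in 3 flanking sequence contexts, and the comparison below is between contexts for each motif arrangement. A design is 1 ordered arrangement of motifs, named by its motifs from the first to the last position (NFKB_CTCF_NFKB). A construct is a design in 1 context, and each construct is tagged by many random 12 bp barcodes. Designs were taken where at least 2 contexts passed the filters, which gave 180 of 185 designs for the 5 bp library, 148 of 148 for the 10 bp library and 170 of 182 for the integrated library. All 3 contexts were present for 177, 146 and 161 of these designs. The designs include rd, an entry whose name holds no motif and which was compared within the same context throughout. The deposited tables name constructs without giving their flanks or motifs as sequence, so it is not known here whether context 1 of the 5 bp library and context 1 of the 10 bp library carry the same flanks.

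All 13 samples came from wild-type MEC1, a standard cell line grown from chronic lymphocytic leukaemia, which is a cancer of B lymphocytes. In the episomal assay, plasmid libraries with 5 bp or with 10 bp between motifs were transfected in duplicate and RNA was taken after 24 h, giving 1 plasmid DNA library and 2 mRNA libraries for each spacer. In the integrated assay, the 5 bp library replaced a GFP cassette in the genome by CRE-mediated exchange, cells without GFP were sorted after 10 to 12 days and grown for a further 6 to 7 days, and 3 mRNA and 3 genomic DNA samples were prepared beside 1 plasmid DNA library. The labels do not say that the 3 extractions came from separate cultures, and the 2 mRNA libraries of a spacer shared 1 plasmid library. The p-values therefore measure the spread between these libraries, which may be technical.

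In STARR-seq an enhancer under test lies within the transcript it drives, and its strength is read from how often it appears among mRNA compared with input DNA. Transcription factors bind short motifs, and the bases around a motif can add binding sites, change DNA shape or alter how strongly the promoter responds, which is why designed libraries repeat each arrangement in several flanks. The 8 motifs are named for families with known roles in B cells or in genome organisation. NFKB and IRF factors act downstream of immune signalling, PU1 and RUNX3 are blood lineage factors, MEF2 and FOXO factors respond to signalling in lymphocytes, MYC drives growth programmes through E-box motifs, and CTCF binds insulators and anchors of chromatin loops.

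Episomal activity is given as log2 of a construct's share of mRNA reads over its share of plasmid reads, so that 0 is the average of the library. Integrated activity is log2 of a construct's summed mRNA RPM over its summed genomic DNA RPM, with 0.5 added to each. There, 0 is equal RPM in mRNA and genomic DNA and not the average of the library. In both, a difference of 1 between contexts is a doubling. The episomal libraries held 3850658 to 4563359 reads each. Contexts 1, 2 and 3 took 31.2%, 32.1% and 36.7% of the plasmid reads kept at 5 bp spacing and 31.3%, 32.7% and 36.0% at 10 bp. The median construct had 353, 380 and 414 barcodes at 5 bp and 383.5, 386 and 510 at 10 bp, against 28, 27 and 32.5 in the integrated library. Every episomal barcode in the deposited tables had at least 1 read in each library, so weak constructs are overstated. Across designs, the context with more barcodes tended to be the more active one, with a Pearson r of 0.13 to 0.41 between the log2 ratio of barcode numbers and the activity difference over 146 to 180 designs, 6 comparisons in all. With the log2 ratio of plasmid reads per barcode, the activity difference had a Pearson r of -0.51 to -0.19 in the same comparisons. Plasmid reads are also the denominator of activity. The part of barcode number or of reads per barcode in the context differences was not tested.

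Episomal activity differed mostly between motif arrangements, and the smaller part that differed between contexts was largely specific to single designs. At 5 bp, 96.1% of the variance of activity over 177 designs and 3 contexts lay between designs, 0.203% was a shift common to a context and 3.73% was specific to a design in a context. At 10 bp these shares were 91.9%, 1.88% and 6.23% over 146 designs. In the integrated library they were 63.4%, 0.558% and 36.1% over 161 designs, a specific share that includes the larger noise of that assay. Activity in one context tracked that in another with a Pearson r of 0.94 to 0.95 at 5 bp, 0.90 to 0.91 at 10 bp and 0.36 to 0.51 after integration, as a description over designs measured in the same libraries. The median design spanned 0.48 log2 units over its 3 contexts at 5 bp and 0.65 at 10 bp. A span over 1 log2 unit was seen for 14 of 177 designs at 5 bp and for 31 of 146 at 10 bp.

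At 5 bp spacing, designs were on average lowest in context 3. The mean difference over matched designs was -0.14 ± 0.02 (SD, n = 2 mRNA replicates) for context 3 minus 1, -0.07 ± 0.0091 for context 2 minus 1 and -0.07 ± 0.03 for context 3 minus 2, each negative in both replicates. Designs were tested one by one with edgeR's quasi-likelihood test on 146 designs and Benjamini-Hochberg adjustment. Of these, 85 (58.2%) differed between contexts 3 and 1, with 22 higher (15.1%) and 63 lower (43.2%) in context 3. Contexts 2 and 1 differed for 80 (54.8%), with 32 higher (21.9%) and 48 lower (32.9%) in context 2. Contexts 3 and 2 differed for 84 (57.5%), with 27 higher (18.5%) and 57 lower (39.0%) in context 3. In all, 106 designs (72.6%) differed between any of the contexts. The 146 designs had all contexts in both libraries. Fitted alone, the 5 bp library had 177 designs to test, with 57 arrays of 3 motifs against 26 at 10 bp. The split of higher to lower calls then became 35 to 64 for context 3 minus 1, 34 to 59 for context 2 minus 1 and 43 to 59 for context 3 minus 2. Shares of all 5 bp designs given below are those of the 146. The 3 comparisons share contexts and are not independent of each other.

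At 10 bp spacing the order of the contexts was different: context 3 was the highest and context 2 the lowest. The mean difference was 0.28 ± 0.02 (SD, n = 2) for context 3 minus 1, -0.17 ± 0.01 for context 2 minus 1 and 0.44 ± 0.0060 for context 3 minus 2. Context 3 was the most active of the contexts for 85 of 146 designs and context 2 the least active for 92. Of the 146 designs tested, 118 (80.8%) differed between contexts 3 and 2, with 101 higher (69.2%) and 17 lower (11.6%) in context 3. Contexts 3 and 1 differed for 96 (65.8%), with 71 higher (48.6%) and 25 lower (17.1%) in context 3. Contexts 2 and 1 differed for 106 (72.6%), with 32 higher (21.9%) and 74 lower (50.7%) in context 2. A difference between any contexts was called for 133 designs (91.1%).

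These directions depend on the scale on which contexts are compared. With a TMM factor for each library and context, the medians over all designs at 10 bp moved by 0.25, -0.37 and -0.62 for contexts 2 minus 1, 3 minus 1 and 3 minus 2. The split of higher to lower calls then became 51 to 39, 38 to 66 and 30 to 64, and at 5 bp 25 to 53, 27 to 55 and 39 to 42. Relative to rd of the same context the splits were 8 to 39, 41 to 27 and 65 to 9 at 5 bp, and 8 to 99, 79 to 8 and 129 to 1 at 10 bp, after shifts of the median of -0.14, 0.30 and 0.44 and of -0.37, 0.19 and 0.56. What follows therefore reads each group against the median of all designs in the same comparison, and says where another scale turns a direction.

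The construct rd had an order of contexts that was alike in all libraries. At 5 bp, its activity was -1.27 and -1.23 in context 1, -1.06 and -1.17 in context 2, and -1.58 and -1.51 in context 3, over 541 to 618 barcodes. At 10 bp it was -0.62 and -0.74, -0.27 and -0.35, and -0.82 and -0.93, over 731 to 889 barcodes. Context 2 was the highest and context 3 the lowest in each library, with no overlap between the replicates of different contexts. The fitted difference between contexts 3 and 2 was -0.44 (SE 0.10, edgeR adjusted p = 1.4e-03) at 5 bp and -0.56 (SE 0.10, edgeR adjusted p = 5.1e-05) at 10 bp. Context 2 minus 1 at 5 bp (0.13, edgeR adjusted p = 0.27) and context 3 minus 1 at 10 bp (-0.19, edgeR adjusted p = 0.092) were not called. At 5 bp the order was not particular to rd. The mean of the 8 single-motif arrays there was -1.00, -0.87 and -1.46 in contexts 1, 2 and 3. At 10 bp that mean had another order, with -0.54, -1.17 and -0.24.

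The gain of motif arrays over rd differed between contexts. At 10 bp, 74 of 145 arrays were above rd in context 1, 50 in context 2 and 90 in context 3, and 47 were above it in all 3 contexts. The activity of the median array minus that of rd was 0.08 in context 1, -0.51 in context 2 and 0.59 in context 3. At 5 bp, 126, 110 and 124 of 176 arrays were above rd, with medians 0.61, 0.37 and 0.67 above it, and 104 were above it in all 3 contexts. No array with a CTCF motif was above rd in all 3 contexts of either library.

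Some single-motif arrays also changed their order of contexts between the libraries. How their sequences differ between the libraries is not known here. One IRF motif at 5 bp had activities of -0.57 and -0.53 in context 1, -0.24 and -0.19 in context 2, and -1.48 and -1.34 in context 3. At 10 bp the same design had 0.43 and 0.32, -0.31 and -0.36, and 1.17 and 1.16. Context 3 was thus the lowest at 5 bp and the highest at 10 bp, and replicates of different contexts did not overlap in either library. The fitted difference of context 3 minus 2 was -1.19 (SE 0.09, edgeR adjusted p = 7.2e-08) at 5 bp and 1.50 (SE 0.08, edgeR adjusted p = 1.7e-10) at 10 bp, and the difference between the libraries was 2.69 (SE 0.12, edgeR adjusted p = 1.5e-11).

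One MEF2 motif and one FOXO motif also had their lowest context at 5 bp as their highest at 10 bp. MEF2 had -0.77 and -0.75, -0.81 and -0.87, and -1.69 and -1.56 in contexts 1, 2 and 3 at 5 bp, and -0.68 and -0.79, -0.93 and -0.97, and 0.28 and 0.25 at 10 bp. FOXO had -0.92 and -0.89, -0.66 and -0.59, and -1.32 and -1.38 at 5 bp, and -0.82 and -0.85, -0.83 and -0.93, and 0.32 and 0.23 at 10 bp. For both, context 3 was the lowest of the contexts at 5 bp and the only one above 0 at 10 bp. Between the libraries the context 3 minus 1 difference changed by 1.86 (SE 0.13, edgeR adjusted p = 3.1e-09) for MEF2 and by 1.55 (SE 0.12, edgeR adjusted p = 1.1e-08) for FOXO. For IRF and MEF2, and for FOXO at 10 bp, the sign of context 3 minus 1 was called on each of the 3 scales, while for FOXO at 5 bp it was not called relative to rd.

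One NFKB motif was highest in context 2 at 5 bp, with -0.02 and 0.00 against -0.58 and -0.59 in context 1 and -0.60 and -0.52 in context 3. At 10 bp context 2 was its lowest, with -0.73 and -0.84 against 0.51 and 0.40 in context 1 and 1.20 and 1.12 in context 3. The context 2 minus 1 difference was 0.58 (SE 0.08, edgeR adjusted p = 2.8e-05) at 5 bp and -1.24 (SE 0.08, edgeR adjusted p = 2.8e-09) at 10 bp, on 602 to 822 barcodes. The replicates of context 2 did not overlap those of the other contexts in either library.

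The other single motifs did not follow the high activity of context 3 at 10 bp. One RUNX3 motif was lowest in context 3 at 5 bp (-1.69 and -1.73, against -0.93 and -0.87 in context 1), and at 10 bp was highest in context 1 (-0.21 and -0.30) with -1.01 and -1.10 in context 2 and -0.96 and -0.96 in context 3. Its fall from context 1 to context 3 was called in both libraries, with differences of -0.81 at 5 bp and -0.70 at 10 bp. One MYC motif was also highest in context 1 in both libraries, with -0.78 and -0.83 at 5 bp and -0.52 and -0.68 at 10 bp. One PU1 motif was highest in context 1 at 5 bp (-0.58 and -0.59) and lowest in context 2 at 10 bp (-1.15 and -1.26, against 0.15 and 0.06 in context 1). One CTCF motif lay between -2.99 and -2.68 in every context and replicate of both libraries, and no context pair was called on the reported scale. On each of the other scales all 3 pairs were called at 10 bp, in opposite directions on the 2 scales, with context 3 minus 2 at -0.60 with a TMM factor per context and 0.58 relative to rd.

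Over the 8 single-motif arrays, the mean activity in contexts 1, 2 and 3 was -1.00, -0.87 and -1.46 at 5 bp and -0.54, -1.17 and -0.24 at 10 bp. Of the 8 arrays, 7, 6 and 5 were above rd of the same context at 5 bp, and 5, 0 and 5 at 10 bp. In context 2 of the 10 bp library no single motif exceeded rd, which was at its highest there. IRF came closest, at -0.34 against -0.31 for rd, with overlapping replicates.

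On the reported scale, designs called in both episomal libraries often moved in opposite directions. For context 2 minus 1, 62 designs were called in both (77.5% of the 5 bp calls and 58.5% of the 10 bp calls), 35 in the same direction and 27 in opposite ones. For context 3 minus 1 there were 60 (70.6% and 62.5%), 32 in the same direction and 28 in opposite ones, of which 26 were higher in context 3 at 10 bp and lower at 5 bp. For context 3 minus 2 there were 71 (84.5% and 60.2%), 25 in the same direction and 46 in opposite ones. Of the 46, 42 were higher in context 3 at 10 bp and lower at 5 bp. With a TMM factor per context, the 10 bp calls of this pair turned to 30 higher and 64 lower. Designs called in both libraries were not counted on the other scales. The context differences of a design at 5 bp and at 10 bp had a Pearson r of 0.08, 0.25 and -0.04 for contexts 2 minus 1, 3 minus 1 and 3 minus 2 over 148, 146 and 146 designs. The 2 libraries share no sample, but spacing, plasmid pool and the flanks that a context number stands for cannot be told apart.

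Tested directly, the context difference itself changed between the spacers for 88 designs (60.3%) for context 2 minus 1, 88 (60.3%) for context 3 minus 1 and 117 (80.1%) for context 3 minus 2. The context 3 minus 2 difference was larger at 10 bp for 100 (68.5%) and smaller for 17 (11.6%). The context 3 minus 1 difference was larger for 81 (55.5%) and smaller for 7 (4.79%), or 14 with the replicate block, and the context 2 minus 1 difference for 32 (21.9%) and 56 (38.4%). In the same order the splits were 34 to 53, 42 to 41 and 56 to 29 with a TMM factor per library and context, and 100 to 5, 56 to 6 and 17 to 67 relative to rd.

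Arrays of MYC alone were low in context 2. All 5 such arrays were called lower in context 2 than in context 1 at 10 bp, and 4 of 5 at 5 bp, where 50.7% and 32.9% of all designs were. Their median differences were -0.77 and -0.63, against -0.22 and -0.06 for all designs. The counts of calls were 5 of 5 and 4 of 5 on each of the other scales too. MYC_MYC at 5 bp had -0.10 and -0.18 in context 1, -1.33 and -1.42 in context 2, and -0.90 and -0.96 in context 3. At 10 bp it had -1.10 and -1.28, -1.65 and -1.81, and -1.30 and -1.46. Context 2 was the lowest without overlap in both libraries, with a difference from context 1 of -1.23 (SE 0.12, edgeR adjusted p = 5.9e-07) at 5 bp.

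Of the longer MYC arrays, those of 4 and 5 copies were also lowest in context 2 by their mean in both libraries, and that of 3 copies at 10 bp. For 5 copies at 5 bp, the replicates of contexts 2 and 3 overlapped. At 10 bp MYC_MYC_MYC had -1.42 and -1.60, -2.07 and -2.38, and -1.86 and -1.97 in contexts 1, 2 and 3. At 5 bp MYC_MYC_MYC was as low in context 3 (-1.33 and -1.39) as in context 2 (-1.27 and -1.40), with overlapping replicates, against -0.66 and -0.73 in context 1. MYC_MYC_MYC_MYC fell from -0.36 and -0.53 in context 1 to -1.37 and -1.54 in context 2 at 5 bp and was at -0.39 and -0.60 in context 3. At 10 bp it fell from -2.04 and -2.16 to -2.96 and -3.05, with -2.22 and -2.18 in context 3. MYC_MYC_MYC_MYC_MYC had -2.16 and -2.23, -3.11 and -3.27, and -1.80 and -1.80 at 10 bp, while at 5 bp its values of -0.53 and -0.69, -0.77 and -0.95, and -0.59 and -0.83 lay closer together. Of all 28 tested designs that hold a MYC motif, alone or with another, 15 were called lower and 3 higher in context 2 than in context 1 at 5 bp, where 32.9% and 21.9% of all designs were. At 10 bp 21 were lower and 3 higher, against 50.7% and 21.9% of all designs. With a TMM factor per context the 10 bp count was 13 lower and 5 higher.

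Arrays with CTCF were below rd in nearly every construct, but at 10 bp many were higher in context 3. Of the 25 tested designs with a CTCF motif, 20 were higher and 0 lower in context 3 than in context 1 at 10 bp, with a median difference of 0.56 against 0.18 for all designs, of which 48.6% were higher. The count was 11 higher and 3 lower with a TMM factor per context and 22 and 0 relative to rd. All 20 were among the 22 designs that mix CTCF with another motif. Their median activity was -2.81 in context 1, -2.85 in context 2 and -2.24 in context 3, and 1 of the 22 exceeded rd, in context 3. At 5 bp, 6 of the 25 designs were called higher and 2 lower in context 3 than in context 1, against 15.1% and 43.2% of all designs.

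Arrays with IRF fell in context 3 at 5 bp. Of 28 tested designs with an IRF motif, 19 were lower and 0 higher in context 3 than in context 1, with a median of -0.49 against -0.15 for all designs, of which 43.2% were lower. The count was 17 lower and 1 higher with a TMM factor per context, and 12 and 2 relative to rd. Of the 7 tested mixed designs that begin with IRF, 6 were lower, with a median of -0.91, and 6 of 7 were lower on the other scales as well. At 10 bp, 11 of the 28 were called higher and 7 lower, against 48.6% and 17.1% of all designs. More IRF designs had 3 contexts at 5 bp than were tested. Over all 38 of them the median activity was -0.51 in context 1 and -0.92 in context 3, or 0.74 and 0.63 above rd. Over all 14 mixed designs that begin with IRF it was -0.75 and -1.03, or 0.50 and 0.52 above rd, so relative to rd that median did not fall. For another pair, context 3 minus 2 at 5 bp, 18 of 28 tested designs with a RUNX3 motif were called lower and 4 higher. Of all designs, 39.0% were lower and 18.5% higher. Relative to rd the RUNX3 split turned to 6 higher and 3 lower.

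By number of motifs, arrays of 3 stood highest in context 3 at 10 bp, with 21 of 26 called higher and 3 lower than in context 1 and a median difference of 0.80 against 0.18 for all designs, of which 48.6% were higher and 17.1% lower. Among the 18 that mix motifs, 16 were higher and 1 lower, with a median of 0.96. The mixed arrays of 3 motifs had medians of -0.70, -0.28 and 0.24 in contexts 1, 2 and 3, and had 11 higher and 2 lower with a TMM factor per context. In contrast, 9 of 31 arrays of 4 motifs were higher and 1 lower, with a median of 0.05, and that median was -0.32 with a TMM factor per context. Among the designs tested at 5 bp, arrays of 4 motifs were the one length with a positive median difference from context 1 to each of the others, 0.13 for context 2 and 0.08 for context 3. The first was -0.01 relative to rd. Over all 57 arrays of 3 motifs with 3 contexts at 5 bp, not all of them tested, the median activity was also highest in context 3, with -0.89, -1.03 and -0.70.

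The widest context difference of the episomal libraries was in NFKB_CTCF_NFKB at 10 bp. Its activity was -3.76 and -3.67 in context 1, -2.64 and -2.52 in context 2, and 0.10 and 0.09 in context 3. Context 3 was 14.0-fold above context 1, a log2 difference of 3.81 (SE 0.08, edgeR adjusted p = 4.6e-16), and no replicates overlapped. At 5 bp the same design had -2.14 and -2.11, -2.31 and -2.35, and -2.20 and -2.15, so the contexts lay close together. The construct in context 3 at 10 bp was carried by 1716 barcodes, against 328 and 523 in contexts 1 and 2. The single barcodes showed the same difference, with a median log2 activity of 0.01 (quartiles -0.60 and 0.46) in context 3 and -3.70 (quartiles -4.35 and -3.02) in context 1. It is the 1 construct with CTCF that exceeded rd of its context at 10 bp.

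The arrays of 1 NFKB and 1 CTCF motif differed in their highest context by the order of the motifs. CTCF_NFKB at 10 bp had -2.37 and -2.36, -0.69 and -0.75, and -1.48 and -1.52, so context 2 was the highest, by 1.64 over context 1 (SE 0.10, edgeR adjusted p = 8.9e-10). NFKB_CTCF had -2.55 and -2.77, -3.07 and -3.12, and -1.55 and -1.52, so context 3 was the highest and context 2 the lowest. At 5 bp CTCF_NFKB lay between -2.78 and -2.39 in all 3 contexts.

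FOXO_IRF_FOXO at 10 bp was low in context 1 alone. Its values were -0.79 and -0.88 in context 1, 1.28 and 1.25 in context 2, and 1.02 and 1.02 in context 3, over 1151, 1018 and 1623 barcodes. Context 2 exceeded context 1 by 2.11 (SE 0.06, edgeR adjusted p = 4.6e-14), and the quartiles of single barcodes were -1.67 and -0.47 in context 1 against 0.37 and 1.69 in context 2. At 5 bp the same design had 0.02 and 0.05, 0.09 and 0.13, and -0.16 and -0.09, which are close together.

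Other large differences at 10 bp also involved 3-motif arrays with NFKB. NFKB_PU1_NFKB rose from -0.17 and -0.17 in context 1 through 0.33 and 0.37 in context 2 to 1.48 and 1.50 in context 3, a difference of 1.66 (SE 0.05, edgeR adjusted p = 1.6e-14). NFKB_MYC_NFKB went the other way, from 0.55 and 0.50 through -0.38 and -0.34 to -0.85 and -0.64, a difference of -1.26 (SE 0.08, edgeR adjusted p = 1.4e-09). NFKB_NFKB_NFKB fell from -0.09 and 0.02 through -0.76 and -0.69 to -1.12 and -1.02, a difference of -1.04 (SE 0.07, edgeR adjusted p = 1.4e-09). Both of the falling arrays were strongly active at 5 bp in every context, with 1.68 to 2.07 for NFKB_NFKB_NFKB and 1.58 to 1.93 for NFKB_MYC_NFKB.

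One 10 bp extreme rested on few barcodes. MEF2_CTCF_MEF2_CTCF had -3.40 and -4.13 in context 1, -1.42 and -1.55 in context 2, and -2.97 and -2.95 in context 3, on 22, 27 and 52 barcodes. The fitted rise to context 2 was 2.23 (SE 0.20, edgeR adjusted p = 8.6e-08), but the median barcode was at -3.57 in context 1 and -3.70 in context 2, so the rise was not seen in the typical barcode. At 5 bp the design had 10, 17 and 30 barcodes. Its context 3 minus 2 difference was 1.17 (SE 0.28, edgeR adjusted p = 2.1e-03), while the median barcode was at -2.82 in context 2 and -2.68 in context 3. Its context 3 minus 1 difference of 0.81 (SE 0.33, edgeR adjusted p = 4.5e-02) was not called by DESeq2 (0.82, DESeq2 adjusted p = 0.060) or without either mRNA replicate (0.76, edgeR adjusted p = 0.21, without replicate 1, and 0.87, edgeR adjusted p = 0.16, without replicate 2).

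At 5 bp, both of the widest differences were falls in context 3 of arrays with IRF, followed by the fall of MYC_MYC in context 2 given above. IRF_RUNX3 had -0.08 and -0.11 in context 1, -1.05 and -1.01 in context 2, and -1.81 and -1.74 in context 3, a difference of context 3 minus 1 of -1.68 (SE 0.08, edgeR adjusted p = 5.1e-11). At 10 bp the same design was again highest in context 1, with 1.19 and 1.22 against 0.42 and 0.45 in context 2 and 0.41 and 0.51 in context 3. FOXO_IRF_FOXO_IRF_FOXO fell from 0.45 and 0.57 to -0.90 and -0.86, with 0.06 and 0.17 in context 2, a difference of -1.39 (SE 0.12, edgeR adjusted p = 5.2e-08) on 83 to 92 barcodes. RUNX3_RUNX3 fell from -0.82 and -0.80 to -1.97 and -1.89, a difference of -1.12 (SE 0.07, edgeR adjusted p = 4.7e-09). IRF_MEF2 had 0.43 and 0.56, 0.65 and 0.73, and -0.46 and -0.36, so it was above 0 in contexts 1 and 2 and below 0 in context 3.

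Among rises at 5 bp, the widest was that of MEF2_CTCF_MEF2_CTCF from context 2 to 3 (1.17), on few barcodes as given above. MYC_MYC_MYC_MYC rose by 0.97 from context 2 to 3 (SE 0.13, edgeR adjusted p = 6.8e-06). FOXO_MYC_FOXO_FOXO rose from -1.13 and -1.13 in context 1 to -0.31 and -0.20 in context 2 (difference 0.88, SE 0.10, edgeR adjusted p = 3.3e-06), with -0.99 and -0.87 in context 3. FOXO_RUNX3_FOXO_FOXO rose from -0.09 and -0.07 to 0.68 and 0.70, with 0.22 and 0.26 in context 3. MEF2_MEF2 was lowest in context 1, with -1.00 and -0.85 against -0.29 and -0.12 in context 2 and -0.23 and -0.08 in context 3, where context 1 had 48 barcodes and the others 233 and 291. FOXO_CTCF_FOXO_CTCF was higher in context 3 (-2.05 and -2.09) than in context 1 (-2.77 and -3.11), on 35 to 65 barcodes. MEF2_MYC_MEF2_MYC_MEF2 fell from 0.08 and 0.10 in context 1 to -0.97 and -0.84 in context 2 and -0.59 and -0.77 in context 3, on 46 to 75 barcodes. MEF2_IRF_MEF2_IRF_MEF2 was higher in context 3 (0.40 and 0.60) than in context 2 (-0.31 and -0.32), with 0.00 and 0.36 in context 1 on 11 barcodes.

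Of homotypic arrays, which repeat 1 motif, 17 were called in both libraries for context 2 minus 1, 14 for context 3 minus 1 and 16 for context 3 minus 2, and 10, 7 and 6 of these had the same direction, against 35 of 62, 32 of 60 and 25 of 71 over all designs. The homotypic shares are thus near those of all designs. The shared falls from context 1 to 2 were the MYC arrays of 1 to 4 copies, NFKB_NFKB, NFKB_NFKB_NFKB, PU1 and RUNX3_RUNX3, and the shared rises were MEF2_MEF2 and RUNX3_RUNX3_RUNX3_RUNX3_RUNX3. At 10 bp MEF2_MEF2 rose by 0.30 and rd by 0.37, so relative to rd MEF2_MEF2 did not rise there. From context 1 to 3, IRF_IRF, MYC, MYC_MYC_MYC, RUNX3 and RUNX3_RUNX3 fell in both, and FOXO_FOXO_FOXO and PU1_PU1_PU1 rose in both. Of these, RUNX3, RUNX3_RUNX3, FOXO_FOXO_FOXO and PU1_PU1_PU1 were called in the same direction on all 3 scales. PU1_PU1_PU1 differed by 0.35 at 5 bp and 0.84 at 10 bp, and RUNX3_RUNX3 by -1.12 and -0.71. From context 2 to 3, IRF_IRF fell in both and IRF_IRF_IRF, MYC_MYC, MYC_MYC_MYC_MYC, NFKB_NFKB and PU1_PU1_PU1 rose in both. At 10 bp MYC_MYC (-0.27) and NFKB_NFKB (-0.19) turned negative with a TMM factor per context, and IRF_IRF (0.19) turned positive relative to rd.

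The most active arrays were largely shared by the contexts at 5 bp and less so at 10 bp, as a description. Of the 10 most active arrays of each context at 5 bp, 8 were common to all 3 contexts, and all 8 hold NFKB, among them FOXO_NFKB_FOXO_NFKB_FOXO, NFKB_NFKB_NFKB_NFKB_NFKB and NFKB_FOXO_NFKB. At 10 bp 4 were common to all 3, namely FOXO_IRF_FOXO_IRF_FOXO, FOXO_NFKB_FOXO_NFKB_FOXO, IRF_NFKB and NFKB_IRF. The first in rank at 10 bp was IRF_IRF in context 1 (1.77), NFKB_IRF in context 2 (1.94) and NFKB_IRF_NFKB in context 3 (2.09). At 5 bp, arrays with NFKB had median activities of 1.02, 0.88 and 0.89 in contexts 1, 2 and 3, and arrays with CTCF had -2.64, -2.56 and -2.54.

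A few designs were measured in 2 contexts only and entered no test. At 5 bp these were CTCF_CTCF_CTCF_CTCF (-2.92 in context 1 and -2.91 in context 2), MYC_CTCF_MYC (-2.74 and -2.80) and PU1_PU1_PU1_PU1_PU1 (-2.44 and -2.14 on 9 and 10 barcodes). At 10 bp they were CTCF_CTCF_CTCF_CTCF, with -1.69 in context 1 on 12 barcodes and -3.64 in context 2 on 44, and PU1_PU1_PU1_PU1_PU1, with -2.34 and -2.09. In the integrated library there were 9 designs with 2 contexts.

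After integration, context differences were far wider, and many calls were lost when the strongest barcode of each construct was left out. The median design spanned 2.23 log2 units over its contexts, and 133 of 161 designs spanned over 1. The median share of a construct's mRNA that came from its strongest barcode was 49.9% in context 1, 50.0% in context 2 and 49.1% in context 3. Barcodes with any mRNA were 22.8% ± 3.00 (SD, n = 3 mRNA samples) of those in context 1, 19.2% ± 3.01 in context 2 and 18.1% ± 2.23 in context 3. The mean activity difference was 0.32 ± 0.03 for context 2 minus 1, -0.15 ± 0.27 for context 3 minus 1 and -0.46 ± 0.23 for context 3 minus 2, so the second lies within the spread of the samples.

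By limma on log2(RPM + 0.5) with Benjamini-Hochberg adjustment, 63 of 161 designs (39.1%) differed between contexts 2 and 1, with 32 higher (19.9%) and 31 lower (19.3%) in context 2. Contexts 3 and 1 differed for 48 (29.8%), with 16 higher (9.94%) and 32 lower (19.9%) in context 3. Contexts 3 and 2 differed for 54 (33.5%), with 21 higher (13.0%) and 33 lower (20.5%). In all 77 (47.8%) differed between any contexts. Without the strongest barcode of each construct, 26 (9 higher, 17 lower), 28 (5 and 23), 28 (10 and 18) and 42 were called. Centred on the median design of each context the splits were 29 to 31, 21 to 23 and 31 to 26. Relative to rd, 9 were higher and 78 lower, 102 and 3, and 123 and 2, since rd itself differed widely.

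Integrated rd was at -0.87, -0.86 and -1.27 in context 1, 0.53, 1.32 and 0.40 in context 2, and -3.59, -3.82 and -3.90 in context 3. Context 2 was the highest and context 3 the lowest, as in the episomal libraries, but 6, 12 and 6 of its 39, 38 and 46 barcodes had any mRNA. One barcode held 67.3%, 84.0% and 62.3% of the mRNA of rd in contexts 1, 2 and 3, and without that barcode the means were -2.57, -1.96 and -4.84. Values relative to integrated rd rest on these few barcodes.

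The context differences of the integrated 5 bp designs had a Pearson r of 0.22, 0.17 and 0.24 with those of the episomal 5 bp designs, over 164, 161 and 167 designs for contexts 2 minus 1, 3 minus 1 and 3 minus 2. The mRNA and DNA libraries of these assays are separate samples. Among single motifs, MYC was at 0.10, 0.45 and 0.22 in context 1, 2.21, 2.33 and 2.38 in context 2, and -0.99, -0.23 and -0.73 in context 3, so context 2 was its highest after integration, whereas context 1 was its highest in both episomal libraries. The context 3 minus 2 difference was -2.96 (SE 0.28, limma adjusted p = 1.7e-06), and -4.50 without the strongest barcodes (limma adjusted p = 5.7e-05). FOXO was at -0.17, 0.01 and -0.03, then -1.71, -2.39 and -1.52, then -2.92, -2.17 and -2.98, and was highest in context 1. The fall of FOXO from context 1 to 3 was -2.63 (SE 0.33, limma adjusted p = 3.7e-05), and -2.00 without the strongest barcodes (limma adjusted p = 0.015). Of the 8 single motifs, 5, 1 and 8 were above integrated rd in contexts 1, 2 and 3.

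Several of the widest integrated differences came from constructs in which 1 barcode dominated. IRF_PU1 was at 7.79, 7.97 and 8.02 in context 2, against 0.01, 0.85 and 0.37 in context 1 and 0.86, 0.96 and 1.49 in context 3. One of its 20 barcodes in context 2 held 99.7% of that mRNA, which was 21.8% to 30.3% of all mRNA listed for the library, and without the strongest barcodes the difference of context 2 minus 1 was 0.03 (limma adjusted p = 0.97). MYC_MYC_MYC was at 4.11, 4.30 and 4.42 in context 3, against -2.78, -2.81 and -3.40 in context 1 and -0.81, -1.50 and -1.35 in context 2. One of its 127 barcodes held 96.4% of the mRNA in context 3. RUNX3_PU1_RUNX3 was at 2.49, 2.42 and 2.63 in context 1, where 1 of 44 barcodes held 95.2%, and at -6.54, -3.09 and -6.41 in context 2.

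Some constructs were listed at 0. RUNX3_RUNX3_RUNX3_RUNX3_RUNX3 was listed at 0 mRNA for all 17 barcodes of context 1, and had mRNA from 1 of 15 barcodes in context 2 (2.02, 1.99 and 1.13) and 1 of 30 in context 3 (-3.91, -4.77 and -3.72). RUNX3_RUNX3_RUNX3_RUNX3 was listed at 0 for all 44 barcodes of context 3, against -2.87, -3.74 and -4.16 in context 1. Elsewhere the values were measured but uneven: CTCF_PU1 was at 1.45, 0.92 and 0.89 in context 3, where 1 barcode held 97.3%, against -3.30, -3.48 and -3.09 in context 1, RUNX3_FOXO fell from 0.62, 1.10 and 0.58 in context 1 to -3.90, -4.79 and -3.92 in context 3, and CTCF_MYC was at 0.89, 1.14 and 1.17 in context 2 against -4.25, -6.01 and -4.11 in context 3. RUNX3_FOXO had 9 barcodes with mRNA in each context, of 28, 34 and 42. CTCF_CTCF_CTCF was at 1.50, 1.24 and 1.76 in context 2, where 1 barcode held 90.8%, against -2.76, -2.96 and -10.95 in context 1, and the difference was not called without replicate 1 or replicate 2 (limma adjusted p = 0.079 and 0.071). MEF2_RUNX3_MEF2_RUNX3 rested on 5, 10 and 19 barcodes and lost its calls without replicate 1 or 2 as well.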

How the data were processed

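Per the file headers, the episomal tables are raw read counts of each barcode, which the authors deposited with construct names. The integrated table was deposited by the authors as RPM for mRNA and for genomic DNA, beside counts of plasmid DNA, per the file headers; each listed barcode has at least 2 RPM in every genomic DNA sample. How barcodes were counted and assigned is not given in the sources used. Another 9 per-sample columns could be tied to no sample and were left aside. Unnamed barcodes, with 16.6% to 18.5% of the episomal reads, were dropped before totals were taken.

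A barcode needed 5 plasmid reads and a construct 5 barcodes (3 in the integrated library, with no plasmid minimum), and reads were summed per construct. Episomal contexts were compared with edgeR 4.0.16 (quasi-likelihood test, R 4.3.3): 146 designs with all contexts in both libraries, 18 columns of library and context, offsets set to library totals, and the contrast of mRNA minus plasmid between contexts. Contexts of a library share its total, so library scaling cancels. Integrated contexts were compared with limma 3.58.1 on log2(RPM + 0.5), mRNA minus genomic DNA, for 161 designs, and fold changes of low constructs are understated on that scale. Calls are at an adjusted p under 0.05 (Benjamini-Hochberg). Constructs of 1 library come from the same sample, which pairs contexts by construction, so fits with the replicate as a block were run beside the fits without it. DESeq2 1.42.0, other filters, pseudocounts and scales were tried as alternatives.

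Tested on simulated data, edgeR recovered 55.0%, 92.5% and 100.0% of log2 changes of 0.3, 0.5 and 1 in the 10 bp comparison of contexts 3 and 1, and limma 50.0% and 85.0% of changes of 2 and 4 in the integrated one. PCR reads without molecular identifiers are not independent molecules, and constructs are not replicates. Designs named are rd, the 8 single-motif arrays, the 3 most positive and 3 most negative called designs per library and context pair and for 10 bp minus 5 bp (same sign in every replicate), and homotypic arrays called in the same direction in both episomal libraries. The remaining MYC arrays and the highest ranked arrays were named after their values were seen. Designs and groups were chosen with earlier results of these data known.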

Additional observations from a re-analysis of the deposited data

Results flagged for a closer look

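The results below concern context differences that themselves differed between the 10 bp and the 5 bp library, tested as the difference of the differences with edgeR. This held for 88 designs for context 2 minus 1, 88 for context 3 minus 1 and 117 for context 3 minus 2. Spacing, plasmid pool and the flanks that a context number stands for cannot be told apart here. How the single-motif arrays IRF, MEF2 and NFKB differ in sequence between the libraries is not known here.

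For context 2 minus 1, the difference at 10 bp exceeded that at 5 bp by 2.59 for MEF2_CTCF_MEF2_CTCF, 2.03 for FOXO_IRF_FOXO and 1.51 for CTCF_NFKB, on the log2 scale. It was smaller at 10 bp for NFKB (-1.82), RUNX3_FOXO (-1.20) and FOXO_MYC_FOXO_FOXO (-1.19). RUNX3_FOXO was at -0.50 and -0.45 in context 1 and -0.22 and -0.30 in context 2 at 5 bp, and at -0.13 and -0.21, then -1.18 and -1.13 at 10 bp. MEF2_CTCF_MEF2_CTCF rested on 10 and 17 barcodes in contexts 1 and 2 at 5 bp and on 22 and 27 at 10 bp. Its median barcode in these contexts was at -3.27 and -2.82 at 5 bp and at -3.57 and -3.70 at 10 bp. The larger difference at 10 bp was thus not seen in the typical barcode.

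For context 3 minus 1, the change between libraries was 3.85 for NFKB_CTCF_NFKB, 2.02 for FOXO_IRF_FOXO and 1.86 for MEF2, and -1.24 for NFKB_NFKB_NFKB, -1.21 for NFKB_MYC_NFKB and -0.80 for MEF2_MEF2. MEF2_MEF2 at 5 bp had 48 barcodes in context 1.

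For context 3 minus 2, the change was 2.69 for IRF, 2.52 for NFKB_CTCF_NFKB and 2.50 for NFKB, and -2.64 for MEF2_CTCF_MEF2_CTCF, -0.73 for FOXO_IRF and -0.71 for NFKB_NFKB_NFKB. FOXO_IRF was at -0.70 and -0.68 in context 2 and -0.53 and -0.39 in context 3 at 5 bp, and at 1.08 and 1.09, then 0.57 and 0.58 at 10 bp. The value for NFKB_NFKB_NFKB was not called relative to rd (-0.59, edgeR adjusted p = 0.053). The value for MEF2_CTCF_MEF2_CTCF was not seen in its typical barcode. Its median barcode in contexts 2 and 3 was at -2.82 and -2.68 at 5 bp and at -3.70 and -3.04 at 10 bp.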

How the results depend on the processing

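Fits with the replicate block, which pairs the contexts of a library, called 91, 98 and 102 designs at 5 bp, 124, 104 and 127 at 10 bp, and 52, 46 and 50 after integration (contexts 2 minus 1, 3 minus 1, 3 minus 2), changed no total count of calls by over 1.5 times, doubled the designs with a smaller context 3 minus 1 difference at 10 bp than at 5 bp from 7 to 14, and kept all 72 calls of named designs. Leaving out 1 replicate gave 60 to 72, 70 to 79 and 71 to 73 calls at 5 bp, 93 to 93, 81 to 89 and 110 to 113 at 10 bp, and 43 to 56, 38 to 42 and 42 to 58 after integration. Relative to rd, contexts 2 minus 1 at 5 bp gave 47 calls, and the integrated library 105, 125 and, for any context, 132. Without the strongest barcode of each integrated construct, an alternative chosen after seeing the data, 26, 28, 28 and, for any context, 42 were called, and RUNX3_RUNX3_RUNX3_RUNX3_RUNX3 (-0.28) and CTCF_PU1 (-0.41) for context 3 minus 1 and IRF_PU1 (0.10) for context 3 minus 2 changed sign. The mean differences moved by more than the replicate SD as follows, each in the order 2 minus 1, 3 minus 1, 3 minus 2. Relative to rd they were -0.20, 0.16 and 0.36 at 5 bp, -0.54, 0.47 and 1.00 at 10 bp, and -1.43, 2.62 and 4.07 after integration. Homotypic arrays gave -0.051, -0.21 and -0.15 at 5 bp, -0.25, 0.18 and 0.39 at 10 bp, and 0.85 and 0.23 for the first and second pair after integration. With at least 20 plasmid reads per barcode they were -0.10 and -0.18 for the first and second pair at 5 bp, and -0.19 (2 minus 1) and 0.48 (3 minus 2) at 10 bp. The median over barcodes gave -0.18 and 0.45 for those 10 bp pairs, and no plasmid minimum gave 0.45 for the latter. For the integrated 2 minus 1, a pseudocount of 0.1 gave 0.40, a pseudocount of 2 gave 0.26, at least 20 barcodes gave -0.066 and leaving out the strongest barcode gave -0.014, and at least 20 barcodes gave -0.45 for 3 minus 1. As the share of barcodes with mRNA, the integrated differences were -1.59, -4.77 and -3.08 percentage points. The causes were not tested. The barcode number limits the integrated values, and in simulated data for contexts 3 and 1 at 10 bp, changes of 0.3 were recovered for 55.0%.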
